A study of Homo sapiens with 6 samples.

Results

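The expression of 51 genes of mitosis and of the G2/M phase of the cell cycle was compared in HEC-1-A, an epithelial cell line from a human endometrial adenocarcinoma. The genes were given as a list of symbols, and all 51 were found among the 23228 genes counted in each library and were expressed highly enough to be tested. They were placed in 9 roles, which are cyclins with CDK1 and their regulators, mitotic kinases and their partners, the spindle checkpoint, the anaphase-promoting complex with securin, the centromere and kinetochore, kinesins, spindle assembly with cytokinesis, condensin with chromosome structure, and 1 transcription factor. The study treated the cells with SMIP34, a small molecule inhibitor of the nuclear receptor coregulator PELP1, at 20 µM for 24 h, and compared them with control cells kept in the same medium with serum but without SMIP34. There were 3 control and 3 SMIP34 libraries, all from 1 cell line. The methods of the study state that controls received vehicle, while the labels name only the medium.

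Mitosis begins when cyclin B with CDK1 becomes active, after CDC25 phosphatases remove inhibitory phosphates from CDK1. Chromosomes are then compacted by condensin, attached to spindle microtubules through kinetochores, and held until the spindle checkpoint releases CDC20 to activate the anaphase-promoting complex, which destroys securin and cyclin B. Transcripts of many, though not all, of these genes accumulate in G2 and fall after division, under the DREAM and MYB-MuvB complexes and FOXM1. The level of such transcripts in a proliferating culture follows both the share of cells in G2/M and the amount of transcript in each cell. In bulk libraries such as these, more cells in G2/M and more transcript per cell cannot be told apart.

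The counts on genes came to between 19562711 and 22014835 per library. Levels are given in CPM, the usual unit of counts scaled to the size of the library. Keratins and the other epithelial markers (6 genes) summed to between 3049.5 and 3310.6 CPM, against 2.76 to 4.67 CPM for 6 fibroblast markers, with LUM and PDGFRA at 0 in every library, 0.818 to 2.23 CPM for 5 immune markers, with CD3E at 0, and 0.137 to 0.876 CPM for 4 endothelial markers. Control replicate 1 had a count in 16881 genes and the other libraries in 15965 to 16100. The labels do not say whether the replicates were separate cultures, so that p-values measure the spread between these samples, and they name no batch.

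Most of the mitosis genes had a higher level relative to the whole library in SMIP34-treated cells, by a small amount. Counts scaled to the library do not measure the amount of transcript per cell. At a p-value under 0.05 from the quasi-likelihood test of edgeR, adjusted over all genes by Benjamini-Hochberg, 31 of the 51 genes were higher, against 17.4% of the 13408 genes tested, and 1 was lower (CDC25B), against 17.2%. Under the other scalings tried, 29 to 35 members were higher, and their median stayed above 0. The remaining 19 did not pass the test. The median log2 fold change was 0.11, an increase in level of 8.28%, and the values ran from -0.14 for CDC25B to 0.35 for BUB1. No member passed the additional limit of 0.5 on the absolute log2 fold change, which 3.31% of all genes passed in either direction. All SMIP34 libraries lay above all control libraries for 36 members, against 22.6% of all genes, and below them for 2 members, CDC25B and UBE2C, against 21.9%.

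**Figure D1:**
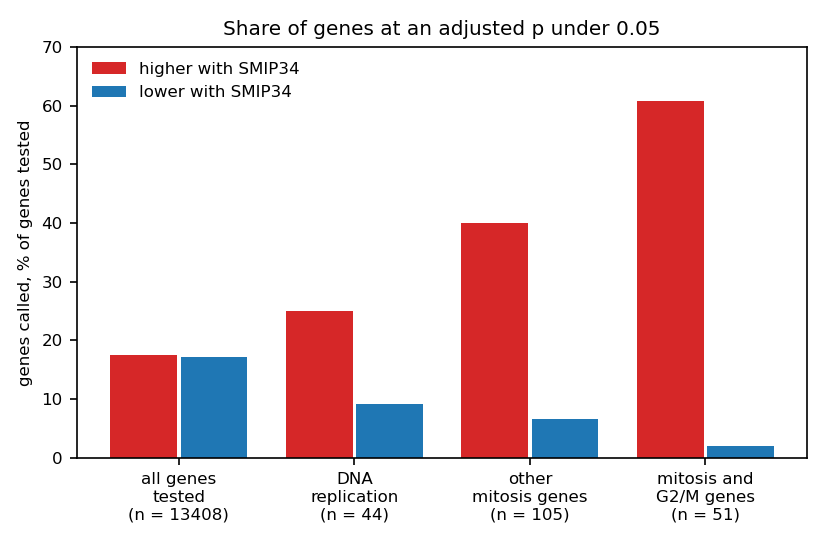
Bars give the share of genes called higher (red) or lower (blue) at an adjusted p under 0.05, in percent of the genes tested, for all genes and for 3 gene lists. The share called higher is 17.4% over all genes, 25% of the DNA replication genes, 40% of the other mitosis genes and 60.8% of the 51 mitosis and G2/M genes.

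The shift of the members was of like size in each SMIP34 library. Relative to the control mean, the median of the 51 genes on the log2 scale was 0.0095, -0.0072 and 0.0002 in control replicates 1, 2 and 3 and 0.110, 0.117 and 0.115 in SMIP34 replicates 1, 2 and 3. The treated medians lay close to each other and above every control median. The median of all genes tested stayed between -0.0008 and 0.0012 in the 6 libraries. The 51 genes took 0.746, 0.733 and 0.743% of all counts in the controls (mean 0.740% ± 0.00678, SD, n = 3) and 0.816, 0.823 and 0.822% after SMIP34 (mean 0.820% ± 0.00397, SD, n = 3), with no overlap.

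**Figure D2:**
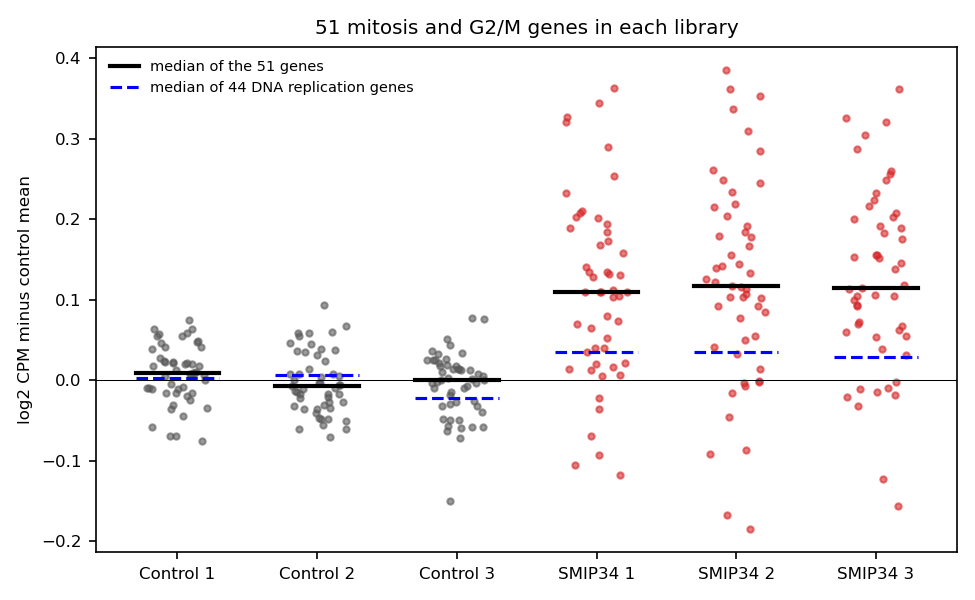
Each point is 1 of the 51 mitosis and G2/M genes in 1 library, as log2 CPM minus the gene's mean over the controls. Thick black lines mark the median of the 51 genes (0.110 to 0.117 in the SMIP34 libraries) and dashed blue lines the median of 44 DNA replication genes (0.029 to 0.035 there).

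The cell cycle homology region (CHR) and the CCAAT box are promoter elements known from G2/M genes, so 6 promoters are shown here to let their letters be read beside the fold changes. Of the 51 members, 44 have at least 1 window (250 bases before to 50 after a start) in a table of RefSeq starts on GRCh38.p14, a later build than the hg19 used for the counts. The CHR was searched as TTTGAA or TTCGAA, the CCAAT box as CCAAT, and an E2F-like site as TTTGGCGC, TTTCCCGC, TTTCGCGC or TTTGCCGC, on both strands. A CHR was found in 37 of 56 member windows (66.1%), against 16.4% of all 35116 windows and 11.8% of the windows of the genes tested. A CCAAT box was found in 69.6% of member windows, against 34.6% of all windows. Both were found in 51.8%, against 6.38% of all windows and 4.76% of the windows of the genes tested. An E2F-like site was found in 4 of 56 member windows (7.14%), against 3.31% of all windows and 4.92% of those of the genes tested. The 6 printed promoters belong to the 3 members with the highest log2 fold changes among the 36 with a single window, and to the 3 nearest 0 among them. Each is the stretch of 150 bases just before the start, in the direction of the gene, and capitals mark CHR, CCAAT and E2F-like letters on either strand (ATTGG and TTCAAA are CCAAT and TTTGAA on the other strand). The last CHR and CCAAT letters of MKI67 share 1 base.
BUB1: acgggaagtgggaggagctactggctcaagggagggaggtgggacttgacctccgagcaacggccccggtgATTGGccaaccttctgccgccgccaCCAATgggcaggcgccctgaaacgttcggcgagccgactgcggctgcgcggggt
MKI67: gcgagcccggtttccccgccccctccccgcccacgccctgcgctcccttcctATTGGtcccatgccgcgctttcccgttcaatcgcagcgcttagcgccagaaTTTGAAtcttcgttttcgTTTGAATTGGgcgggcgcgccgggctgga
ASPM: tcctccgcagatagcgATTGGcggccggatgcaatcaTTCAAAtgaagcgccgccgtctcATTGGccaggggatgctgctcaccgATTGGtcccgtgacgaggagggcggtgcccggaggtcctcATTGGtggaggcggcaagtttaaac
PRC1: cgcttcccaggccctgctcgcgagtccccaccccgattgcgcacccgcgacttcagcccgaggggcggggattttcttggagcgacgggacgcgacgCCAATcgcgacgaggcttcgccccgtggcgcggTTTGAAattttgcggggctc
KIF18A: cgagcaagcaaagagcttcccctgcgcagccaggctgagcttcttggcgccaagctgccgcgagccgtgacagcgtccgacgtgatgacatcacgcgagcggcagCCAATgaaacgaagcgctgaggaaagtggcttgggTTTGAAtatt
CENPA: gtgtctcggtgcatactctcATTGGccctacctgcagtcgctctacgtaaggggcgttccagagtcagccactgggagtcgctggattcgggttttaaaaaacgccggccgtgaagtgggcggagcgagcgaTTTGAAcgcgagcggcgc
These lie at chr2:110678064-110678213 (BUB1, minus strand), chr10:128126424-128126573 (MKI67, minus strand), chr1:197146670-197146819 (ASPM, minus strand), chr15:90994536-90994685 (PRC1, minus strand), chr11:28108157-28108306 (KIF18A, minus strand) and chr2:26785906-26786055 (CENPA, plus strand) of GRCh38.p14. Letters of the same kind stand in the promoters of members that rose and of members near 0. The printed stretches of PRC1, KIF18A and CENPA hold 1 CHR and 1 CCAAT box each, and those of MKI67 hold 2 of each. That of BUB1 holds 2 CCAAT boxes, and its CHR begins 2 bases into the transcript, outside the printed stretch. Among the 36 members with a single window, the median log2 fold change was 0.12 for the 28 with a CHR, of which 18 rose. It was 0.13 for the 8 without, of which 6 rose. Here, without a CHR means that the window held neither TTTGAA nor TTCGAA, and no other form was searched. With the length offsets described further on, the order of these medians turned, to 0.165 with a CHR and 0.114 without. A match is a description of letters and not of binding.

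**Figure D3:**
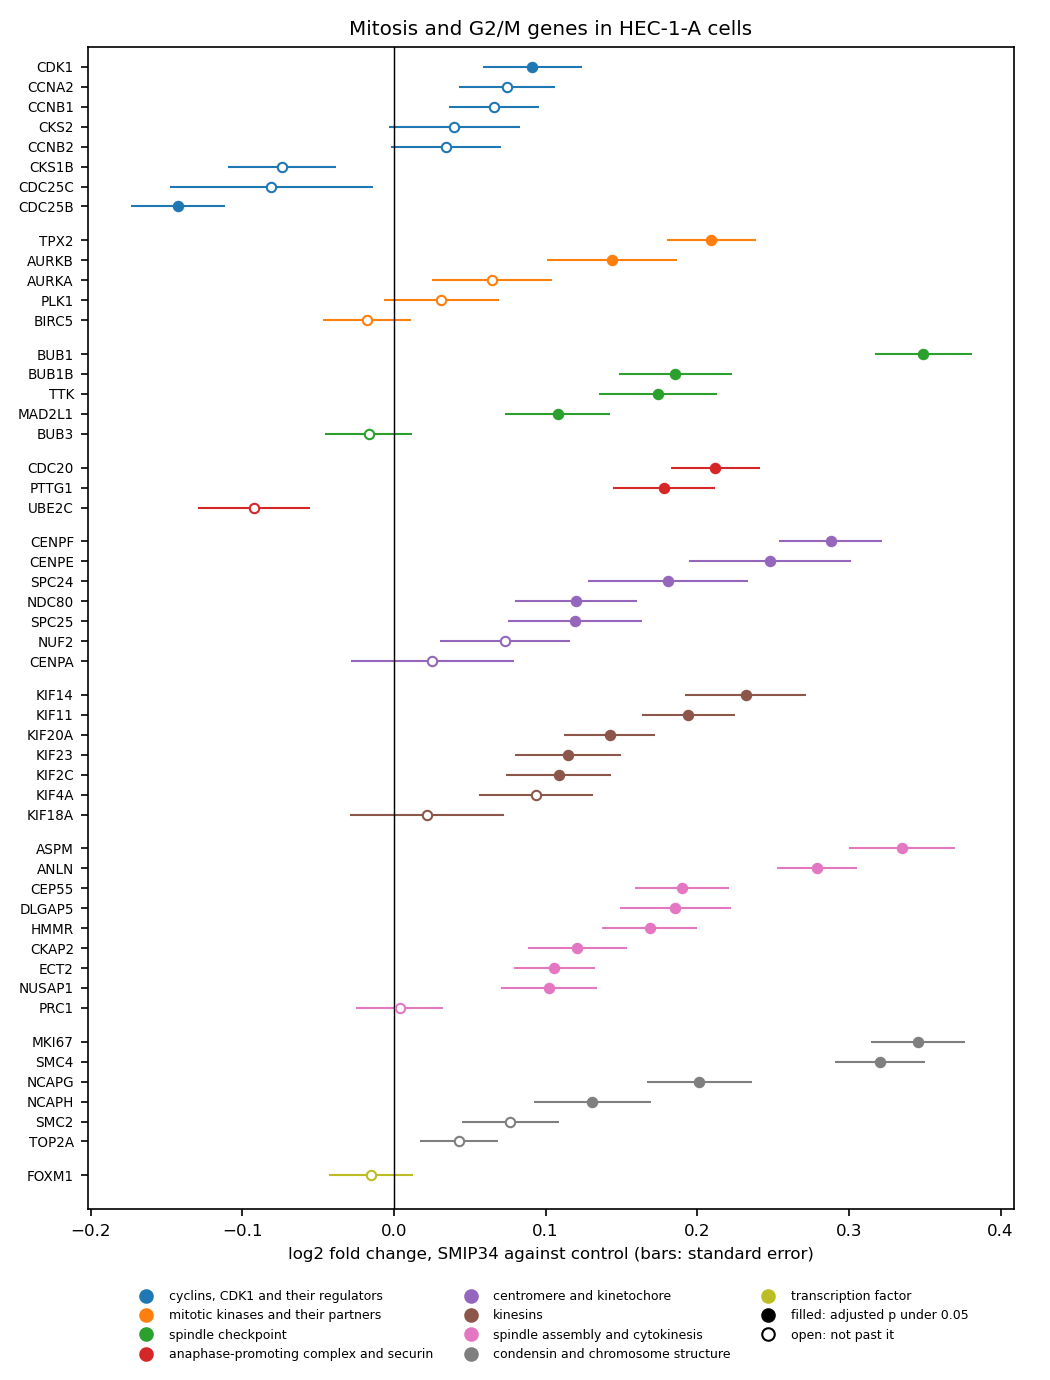
Points give the log2 fold change of each of the 51 members (SMIP34 against control) and bars its standard error, grouped and coloured by role. Filled points passed an adjusted p under 0.05. Most lie right of 0, from CDK1 at 0.09 to BUB1 at 0.35, and CDC25B at -0.14 is the filled point left of 0.

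Among the cyclins, CDK1 and their regulators, 1 of 8 genes rose, 1 fell and 6 did not pass the test, with a median log2 fold change of 0.04. The shares, 12.5% higher and 12.5% lower, lay below the 17.4% and 17.2% over all genes tested. The same shares over all genes stand beside the counts of every role that follows. This role depended on the length offsets described further on. With them 5 of the 8 genes were higher and 1 lower (median 0.09), against 16.8% and 14.8% of all genes. With length and GC offsets 2 were higher and 1 lower (median 0.06), against 16.4% and 14.5%. CDK1, the kinase that drives mitotic entry (chr10:62538089-62554610, hg19), had 158, 151 and 147 CPM in the controls and 164, 163 and 158 CPM after SMIP34. The lowest treated library lay just above the highest control, and CDK1 rose by 0.09 ± 0.033 on the log2 scale (SE; adjusted p = 0.0313, edgeR). That call was lost without any of 4 single libraries (control replicates 2 and 3, SMIP34 replicates 1 and 2), with DESeq2 and with upper quartile scaling, and the log2 fold change was 0.04 with offsets on GC content and 0.06 with offsets on length and GC content, past the test with neither. CDC25B, a phosphatase that activates CDK1 (chr20:3776401-3786761, hg19), had 164, 164 and 168 CPM in the controls and 154, 147 and 149 CPM after SMIP34. All treated libraries lay below all controls, and CDC25B fell by 0.14 ± 0.031 (adjusted p = 0.000748, edgeR), a call kept in all 21 alternative analyses. The other phosphatase of the list, CDC25C, had log2 fold change -0.08 ± 0.067 (adjusted p = 0.378, edgeR).

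Cyclin B1 (CCNB1), the partner of CDK1 at mitotic entry, had 225, 214 and 215 CPM in the controls and 226, 226 and 232 CPM after SMIP34, a log2 fold change of 0.07 ± 0.030 (adjusted p = 0.0879, edgeR). Its paralog CCNB2 had 109, 106 and 111 CPM in the controls and 109, 108 and 116 CPM after SMIP34, a log2 fold change of 0.03 ± 0.036 (adjusted p = 0.5). The groups were apart by a small margin for CCNB1 and overlapped for CCNB2. Cyclin A2 (CCNA2), which acts in S phase and G2, had log2 fold change 0.07 ± 0.032 (adjusted p = 0.0694, edgeR). The CDK-binding subunits CKS1B and CKS2 had log2 fold changes of -0.07 ± 0.036 and 0.04 ± 0.043, and neither passed the test (adjusted p = 0.113 and 0.515). Libraries of CKS2 ranged from 167 to 198 CPM within the controls, a wider spread than its difference between groups.

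Of the 5 mitotic kinases and partners, 2 rose and 3 did not pass the test. TPX2, which activates Aurora A at spindle microtubules (chr20:30326904-30389603, hg19), had 274, 277 and 276 CPM in the controls and 308, 330 and 319 CPM after SMIP34. All treated libraries were higher, and TPX2 rose by 0.21 ± 0.029 (adjusted p = 3e-06, edgeR). Aurora B (AURKB), the kinase of the chromosomal passenger complex, had 63.3, 66.2 and 61.1 CPM in the controls and 68.6, 73.7 and 68.3 CPM after SMIP34, and rose by 0.14 ± 0.043 (adjusted p = 0.0105, edgeR), a call lost without SMIP34 replicate 2. PLK1, the polo-like kinase of mitotic entry, had 91.4, 96.0 and 90.0 CPM in the controls and 92.8, 92.3 and 98.5 CPM after SMIP34. Its groups overlapped (log2 fold change 0.03 ± 0.038, adjusted p = 0.568, edgeR), as did those of Aurora A (AURKA, 0.06 ± 0.040, adjusted p = 0.215). Survivin (BIRC5), the passenger complex subunit that also inhibits cell death, had 221, 218 and 213 CPM in the controls and 212, 220 and 213 CPM after SMIP34, a log2 fold change of -0.02 ± 0.029 (adjusted p = 0.681, edgeR). Of these 5 genes, AURKA, PLK1 and BIRC5 stayed short of the threshold in all 21 alternative analyses.

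The spindle checkpoint, which delays anaphase until chromosomes are attached, had 4 of 5 genes higher and a median log2 fold change of 0.17. BUB1, its kinase at the kinetochore (chr2:111395409-111435684, hg19), had 124, 123 and 128 CPM in the controls and 156, 161 and 161 CPM after SMIP34. All treated libraries lay above all controls, by more than the spread within either group. BUB1 rose by 0.35 ± 0.032 (adjusted p = 3.01e-09, edgeR), or 27.4%, the highest log2 fold change of the 51 genes. Its paralog BUB1B, the BUBR1 subunit of the checkpoint complex, had 104, 100 and 94.9 CPM in the controls and 114, 110 and 116 CPM after SMIP34 and rose by 0.19 ± 0.037 (adjusted p = 0.000333, edgeR). The checkpoint kinase TTK rose by 0.17 ± 0.039 (adjusted p = 0.000913, edgeR) and MAD2L1, which binds CDC20, by 0.11 ± 0.035 (adjusted p = 0.0172), the latter lost without any of 3 single libraries (control replicate 3, SMIP34 replicates 2 and 3) and with GC offsets (0.05). BUB3, the adaptor that brings BUB1 and BUB1B to kinetochores, had 217, 217 and 218 CPM in the controls and 219, 211 and 215 CPM after SMIP34 (log2 fold change -0.02 ± 0.029, adjusted p = 0.696, edgeR).

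CDC20, the coactivator that the checkpoint holds back (chr1:43824626-43828873, hg19), had 192, 198 and 195 CPM in the controls and 221, 227 and 229 CPM after SMIP34. The groups were far apart, and CDC20 rose by 0.21 ± 0.029 (adjusted p = 2.67e-06, edgeR). Securin (PTTG1), which the anaphase-promoting complex degrades to free separase, had 166, 175 and 161 CPM in the controls and 194, 184 and 191 CPM after SMIP34, and rose by 0.18 ± 0.034 (adjusted p = 0.000154, edgeR). UBE2C, the ubiquitin-conjugating enzyme of the same complex, lay in the other direction, with 84.8, 81.8 and 84.0 CPM in the controls and 79.6, 78.6 and 76.7 CPM after SMIP34. Its groups did not overlap, but the log2 fold change of -0.09 ± 0.037 did not pass the test (adjusted p = 0.0545, edgeR). UBE2C passed in 3 of the 21 alternative fits, with the legacy quasi-likelihood method, upper quartile scaling and a filter of 1 CPM. Its log2 fold change was -0.03 with length offsets and -0.01 with length and GC offsets.

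**Figure D4:**
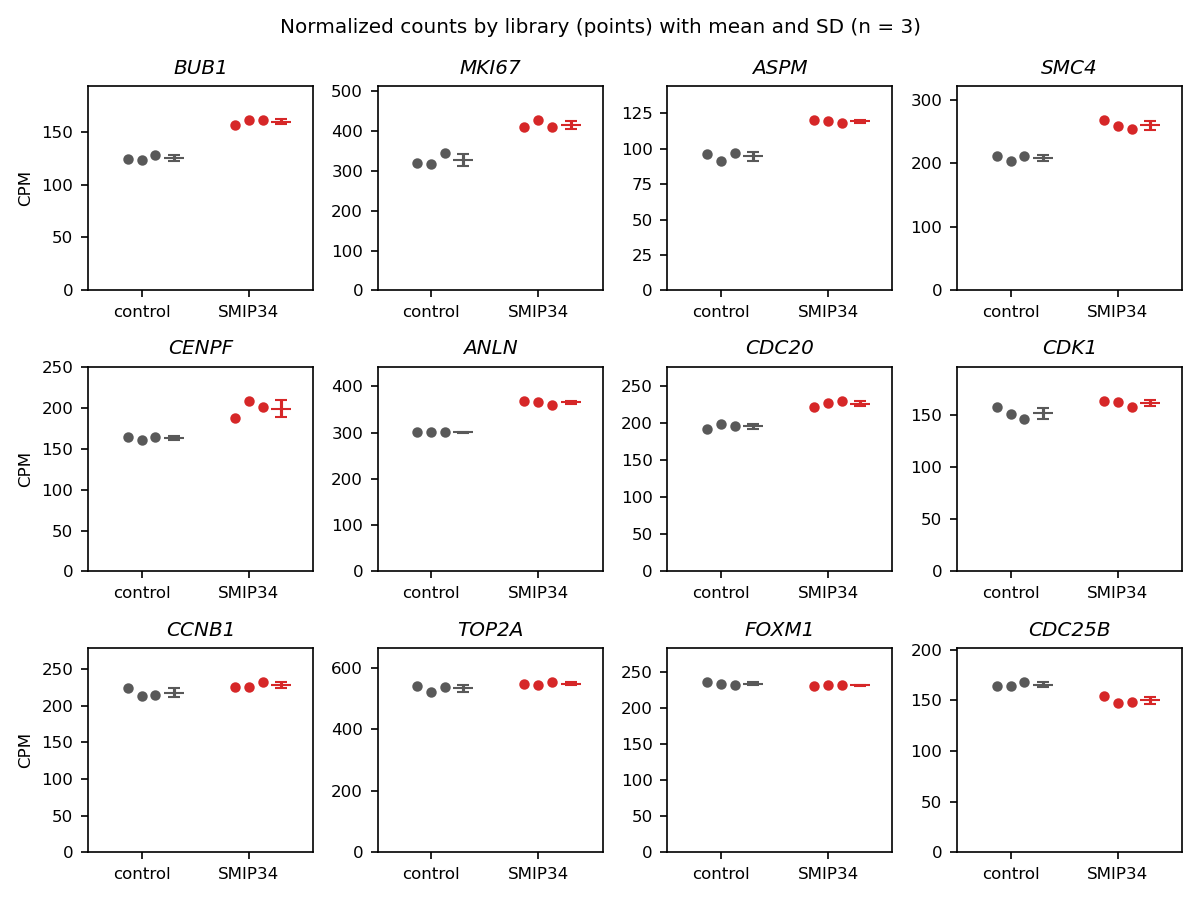
Points give the CPM of 12 mitosis and G2/M genes in each of 3 control (grey) and 3 SMIP34 (red) libraries, with axes that start at 0, and the bar beside them the mean and SD. BUB1, MKI67, ASPM, SMC4, CENPF, ANLN and CDC20 have all treated libraries clearly above the controls, CDC25B has them below, and FOXM1 has overlapping groups.

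At the centromere and kinetochore, 5 of 7 genes rose and 2 did not pass the test, with a median log2 fold change of 0.12. CENPF, a large kinetochore protein of G2 and M (chr1:214776532-214837914, hg19), had 164, 161 and 165 CPM in the controls and 188, 208 and 201 CPM after SMIP34, and rose by 0.29 ± 0.034 (adjusted p = 2.72e-07, edgeR). The kinetochore kinesin CENPE had 28.9, 31.6 and 30.6 CPM in the controls and 36.2, 36.1 and 36.1 CPM after SMIP34, and rose by 0.25 ± 0.053 (adjusted p = 0.000644, edgeR). Both had all treated libraries above all controls. The 4 subunits of the NDC80 complex, which grips microtubules, had log2 fold changes of 0.18 ± 0.053 (SPC24), 0.12 ± 0.040 (NDC80), 0.12 ± 0.044 (SPC25) and 0.07 ± 0.043 (NUF2). The first 3 rose (adjusted p = 0.00902, 0.021 and 0.0373, edgeR) and NUF2 did not pass the test (adjusted p = 0.194). NDC80 lost its call without control replicate 1 or SMIP34 replicate 1 or 2, SPC25 without any of these or SMIP34 replicate 3, and SPC24 without SMIP34 replicate 2. NDC80 and SPC25 also lost their calls with DESeq2 and with GC offsets (0.08 for each), and SPC25 with upper quartile scaling and with no filter on low counts. CENPA, the histone H3 variant that marks the centromere, had 31.7, 32.5 and 33.9 CPM in the controls and 33.1, 34.5 and 32.2 CPM after SMIP34, with overlapping groups (log2 fold change 0.03 ± 0.054, adjusted p = 0.759, edgeR).

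Of the 7 kinesins, motors that move and shorten spindle microtubules, 5 rose and 2 did not pass the test. KIF14, a kinesin of cytokinesis (chr1:200520625-200589862, hg19), had 62.8, 60.3 and 64.5 CPM in the controls and 73.5, 74.1 and 72.7 CPM after SMIP34, and rose by 0.23 ± 0.040 (adjusted p = 5.23e-05, edgeR). KIF11, the motor that separates spindle poles, rose by 0.19 ± 0.031 (adjusted p = 1.77e-05, edgeR), and KIF20A, KIF23 and KIF2C rose by 0.14, 0.11 and 0.11. The calls of KIF23 and KIF2C were each lost without control replicate 1, and also without SMIP34 replicate 2 for KIF23 and SMIP34 replicate 3 for KIF2C. KIF23 also lost its call with GC offsets, alone or with length. KIF4A, a chromosome-bound kinesin, had 90.7, 92.3 and 92.9 CPM in the controls and 93.4, 98.7 and 102 CPM after SMIP34, just short of the threshold (0.09 ± 0.038, adjusted p = 0.0548, edgeR). KIF18A, which dampens chromosome movements, had log2 fold change 0.02 ± 0.051 (adjusted p = 0.782).

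Spindle assembly and cytokinesis had the largest share of genes called among the roles with several genes, with 8 of 9 higher and a median log2 fold change of 0.17. ASPM, a spindle pole protein (chr1:197053257-197115824, hg19), had 96.2, 91.1 and 96.9 CPM in the controls and 120, 120 and 118 CPM after SMIP34, and rose by 0.33 ± 0.035 (adjusted p = 2.9e-08, edgeR). Anillin (ANLN), the scaffold of the cleavage furrow (chr7:36429432-36493400, hg19), had 302, 301 and 301 CPM in the controls and 368, 367 and 361 CPM after SMIP34, and rose by 0.28 ± 0.026 (adjusted p = 5.69e-09, edgeR). The level was 26.1% higher for ASPM and 21.3% higher for ANLN, with all treated libraries above all controls. CEP55 (0.19), DLGAP5 (0.19), HMMR (0.17), CKAP2 (0.12), ECT2 (0.11) and NUSAP1 (0.10) also rose. The calls of CKAP2 and NUSAP1 were lost without SMIP34 replicate 2. With GC offsets ECT2 (0.05), CKAP2 (0.07) and NUSAP1 (0.08) did not pass, and with length and GC offsets ECT2 (0.06) and CKAP2 (0.07) did not. PRC1, which bundles the microtubules of the central spindle, had 210, 204 and 206 CPM in the controls and 209, 206 and 206 CPM after SMIP34 (log2 fold change 0.004 ± 0.029, adjusted p = 0.933, edgeR).

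In the group of condensin and chromosome structure, 4 of 6 genes rose. MKI67, the proliferation marker Ki-67 that coats mitotic chromosomes (chr10:129894925-129924468, hg19), had 319, 318 and 344 CPM in the controls and 410, 427 and 410 CPM after SMIP34. All treated libraries were above the highest control, and MKI67 rose by 0.35 ± 0.031 (adjusted p = 1.72e-09, edgeR), or 27.1%. SMC4, the condensin core subunit (chr3:160117430-160152741, hg19), had 211, 203 and 211 CPM in the controls and 268, 258 and 254 CPM after SMIP34, and rose by 0.32 ± 0.030 (adjusted p = 3.87e-09, edgeR). NCAPG and NCAPH, subunits of condensin I, rose by 0.20 and 0.13, the latter call lost with length offsets and the replicate block together. The partner of SMC4 in condensin, SMC2, had 203, 189 and 200 CPM in the controls and 203, 214 and 208 CPM after SMIP34, and did not pass the test (0.08 ± 0.032, adjusted p = 0.0628, edgeR). TOP2A, the topoisomerase that untangles sister chromatids, had 538, 521 and 537 CPM in the controls and 547, 544 and 553 CPM after SMIP34, a log2 fold change of 0.04 ± 0.026 (adjusted p = 0.207, edgeR).

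FOXM1, the forkhead factor that activates late cell cycle genes (chr12:2966847-2986321, hg19), had 236, 233 and 233 CPM in the controls and 231, 232 and 233 CPM after SMIP34. The groups overlapped, with a log2 fold change of -0.02 ± 0.028 (adjusted p = 0.714, edgeR).

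Levels between genes were compared per exon length. CKS2 had the highest level in the controls, 303 CPM per kilobase of exon, followed by PTTG1 at 235. CENPE had the lowest, 3.53 CPM per kilobase. Across the 51 genes, the log2 fold change was not ordered by level in the controls (Spearman's rho 0.04, Pearson's r 0.11 with log2 CPM, across genes, which are not independent replicates).

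The fold changes did move with gene length. Across all 13408 genes, the log2 fold change had a Spearman's rho of 0.29 with log2 exon length, and the median was -0.10 in the shortest 10% of genes and 0.11 in the longest 10%. Across the 51 members, rho was 0.46 (r = 0.45). With the GC content of their exons, rho across the members was -0.295 (r = -0.354). Their median GC content was 42.1%, against 49.5% over all genes tested. The 5 members in the longest 10%, MKI67, ASPM, CENPF, CENPE and KIF14, had a median of 0.29, and the 4 members in the shortest 10% a median of 0.11, so that in both classes the members lay above the median of all genes of like length. Among the 27 members in the middle range of member lengths, 16 rose and 1 fell, with a median of 0.11, against a median of 0.00007 over all 5903 genes of those lengths.

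The comparison was therefore repeated with offsets that take out the trend with length in each library. The members' median became 0.13, and 36 were higher and 1 lower, against 16.8% and 14.8% of all genes under the same offsets. The long genes had smaller values, 0.21 for MKI67, 0.21 for ASPM, 0.17 for CENPF and 0.16 for CENPE, all still past the test, and short genes larger ones, 0.29 for PTTG1, 0.30 for SPC24, 0.22 for AURKB, 0.18 for MAD2L1 and 0.19 for SPC25. CCNA2, CCNB1, CCNB2, CKS2 and NUF2, which did not pass before, passed with log2 fold changes of 0.09, 0.11, 0.10, 0.17 and 0.13. CCNA2 and CCNB1 also passed with library size only and without control replicate 1. BUB1 (0.34), SMC4 (0.28), ANLN (0.25) and CDC25B (-0.16) kept their calls with length offsets. FOXM1, TOP2A, PRC1 and BUB3 did not pass with either. With offsets on length and GC content together, added after the data were seen, 28 members were higher, against 16.4% of all genes, and 1 was lower, with a median of 0.12. CCNB1 (0.09) and CKS2 (0.13) passed in that fit, while CDK1, CENPE, KIF23, ECT2 and CKAP2 lost their calls (adjusted p = 0.123, 0.0509, 0.055, 0.0538 and 0.0502, edgeR), and CCNA2, CCNB2 and NUF2 did not pass (adjusted p = 0.0802, 0.0538 and 0.0941).

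**Figure D5:**
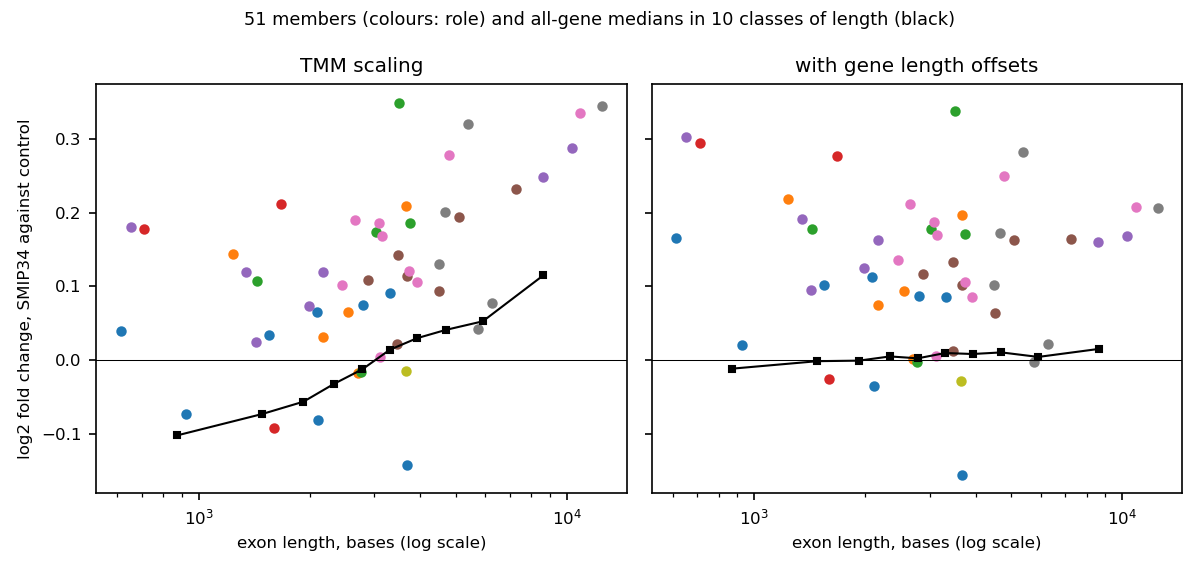
Each coloured point is 1 of the 51 members, with exon length in bases on a log axis and the log2 fold change with TMM scaling (left) or with length offsets (right), and black squares are medians of all genes in 10 classes of length. With TMM scaling the medians climb from -0.10 to 0.11 and most members lie above them, and with offsets the medians are flat near 0 and most members still lie above.

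Other genes of mitosis that are not among the 51 were counted from a list of 105, all of which were tested. Of these, 42 rose, 7 fell and 56 did not pass the test, with a median log2 fold change of 0.09. The largest increases past the test were in the shugoshins, which protect cohesin at centromeres, with SGOL2 at 0.37 ± 0.058 (adjusted p = 1.6e-05, edgeR) and SGOL1 at 0.33 ± 0.058 (adjusted p = 7.91e-05), and in CDC25A, the CDC25 phosphatase of S phase entry, at 0.33 ± 0.047 (adjusted p = 3.81e-06). CDC25A had 42.4, 43.8 and 45.5 CPM in the controls and 52.8, 55.9 and 57.1 CPM after SMIP34, while its paralog CDC25B fell. The largest decreases were in CENPM, a subunit of the inner kinetochore, at -0.28 ± 0.066 (adjusted p = 0.00177, edgeR), and in 2 subunits of the anaphase-promoting complex, CDC16 at -0.20 ± 0.047 (adjusted p = 0.0018) and ANAPC4 at -0.16 ± 0.063 (adjusted p = 0.0487). ANAPC4 lost its call with length offsets (-0.14, adjusted p = 0.0868, edgeR). By subgroup, 9 of 14 genes of the chromosomal passenger complex and cohesin and 13 of 25 other spindle and cytokinesis genes rose. Among the 29 other centromere and kinetochore genes, 7 rose and 2 fell, with a median log2 fold change of 0.05. Of 19 regulators of mitotic entry and of G2/M transcription 8 rose (median 0.04), and of 4 other condensin genes 3 rose. A single spindle and cytokinesis gene fell. The 14 genes of the anaphase-promoting complex include its coactivator FZR1 and its ubiquitin-conjugating enzyme UBE2S, which are not subunits. Of these 14, 2 rose (CDC27 and UBE2S) and 4 fell. Over all genes, 17.4% were higher and 17.2% lower. With length offsets the numbers higher were 6 (passenger complex and cohesin), 13 (spindle and cytokinesis) and 4 (anaphase-promoting complex). They were 11 for the other centromere and kinetochore genes, 9 for the regulators and 3 for the other condensin genes. Lower under these offsets were 2 subunits of the anaphase-promoting complex, 1 spindle and cytokinesis gene and 1 centromere and kinetochore gene. The difference between the subgroups was not tested.

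Of 44 DNA replication genes, set beside the members as the neighbouring phase of the cycle, 11 rose (25%) and 4 fell (9.09%). Over all genes tested, 17.4% were higher and 17.2% lower. The median log2 fold change of the 44 genes was 0.04. The largest increases were in genes that license and start replication, ORC6 at 0.31 ± 0.058 (adjusted p = 0.000135, edgeR), MCM10 at 0.31 ± 0.041 (adjusted p = 1.39e-06) and CDC6 at 0.25 ± 0.033 (adjusted p = 1.37e-06). Among those that fell were the DNA ligase LIG1 at -0.17 ± 0.033 (adjusted p = 0.000199, edgeR) and the helicase subunit GINS2 at -0.14 ± 0.047 (adjusted p = 0.0185). The groups of GINS2 overlapped, and its call was lost with length offsets (-0.07, adjusted p = 0.252, edgeR). The difference between these lists and the 51 mitosis genes was not tested.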

How the data were processed

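RNA of 3 control and 3 SMIP34 libraries was compared. The authors deposited estimated counts, fractional read counts per gene without normalization. Per the file headers, featureCounts 1.5.0-p1 summed stranded reads over exons of the hg19 annotation with a minimum mapping quality of 2, and reads at several places were divided. The submitters' processing notes name bcl2fastq, HISAT2 and SAMtools, and the methods of the study name tophat2 and HTSeq. The labels name library kits of different makers without assigning them. Values that were not whole (6.31 to 7.43% per library) were rounded. All 51 members were annotated at a single place.

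Genes with few counts were removed with filterByExpr (13408 left), libraries were scaled by TMM, and a two-sided quasi-likelihood test was run in R 4.3.3 (edgeR 4.0.16) without fold shrinkage, adjusted by Benjamini-Hochberg across the tested genes. Standard errors came from the F statistic. Log2 CPM used a prior count of 2. The chi-square per gene was 1.89 to 3.26 over 6 pairs of replicates, above counting noise, and 8.75 to 13.2 between groups. The procedure was tested on simulated data.

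Members were given, and the members, the other lists and the promoter motifs were chosen with earlier results of these data known. Named with values were the highest and lowest member of each role, common G2/M markers, paralogs, the extremes of level per length, and the 3 largest increases and decreases of each other list, of which 1 is not reported here. Any further member was picked with its value in view. Alternatives included DESeq2 1.42.0, limma voom (limma 3.58.1), the legacy quasi-likelihood method, other scalings and filters, unrounded counts, a replicate block, loess offsets (span 0.3) on exon length, a threshold of 0.01, leaving out genes at several places, and leaving out each library. Offsets on GC content were added after the data were seen.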

Additional observations from a re-analysis of the deposited data

How the results depend on the processing

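Of the 32 calls among the 51 mitosis genes, all kept their sign in the 21 alternative fits, 19 were past the threshold in each of these fits and 22 in each fit without 1 library. The number of members called higher (31) lay between 22 and 36: 36 with length offsets, 35 with library size only and with length offsets and the block, 28 with DESeq2, 23 with GC offsets, 23 at an adjusted p under 0.01 and 22 without SMIP34 replicate 2 (22 to 31 over the fits without 1 library). Members called lower numbered 2 in place of 1 with the legacy quasi-likelihood method, upper quartile scaling or the filter of 1 CPM (1 to 2 without 1 library). The other mitosis genes called lower numbered 4 in place of 7 with length offsets, with or without the block (4 to 6 without 1 library), and the DNA replication genes called lower 2 in place of 4 with length offsets, with or without the block, and with length and GC offsets. At an adjusted p under 0.01, the count of all genes called lower was 1513. Upper quartile scaling and library size only moved the share of all calls that were higher from 50.4% to 44.7% and 58.6%. The cause of these shifts was not tested, except that the stricter threshold calls fewer genes by construction.

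The median log2 fold change of members was 0.101 with upper quartile scaling, 0.133 with library size only, 0.133 with length offsets, with or without the block, 0.0795 with GC offsets and 0.108 to 0.128 without 1 library. The median log2 fold change of other mitosis genes was 0.0784 with upper quartile scaling, 0.111 with library size only, 0.0802 with GC offsets and 0.0796 to 0.102 without 1 library. The median log2 fold change of DNA replication genes was 0.0553 with library size only, 0.0566 with length offsets, 0.0561 with length offsets and the block, 0.023 with upper quartile scaling and 0.0234 (without control replicate 3) to 0.0463 without 1 library, against 0.0367 with TMM scaling.

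Members near 0 changed sign in some alternatives, and none of the values with a changed sign passed the test. Among these genes, CKS2 passed with length offsets, alone, with the block and with GC offsets added, SMC2 with library size only and without control replicate 1 or 3, and CKS1B without SMIP34 replicate 3. With length offsets, without and with the block and then with GC offsets added, CKS1B had 0.0211, 0.0211 and 0.0027, BIRC5 0.00091, 0.00091 and 0.0177, and TOP2A -0.0028, -0.0029 and -0.0304. With GC offsets alone, BIRC5 had 0.011, KIF18A -0.0321, PRC1 -0.0029, TOP2A -0.0049 and FOXM1 0.0221. With length and GC offsets, KIF18A had -0.0198, PRC1 -0.0065 and SMC2 -0.00599. With library size only, BIRC5 had 0.00076, BUB3 0.0018 and FOXM1 0.0033, and with upper quartile scaling PRC1 had -0.00998. Without 1 library, CKS2 ranged from -0.0298 to 0.0896, CENPA from -0.0011 to 0.0532, KIF18A from -0.0129 to 0.051 and PRC1 from -0.0038 to 0.0152.

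Deviations of same-numbered control and SMIP34 libraries correlated at -0.028, 0.0334 and -0.0111, so no large shift was shared by number. Such correlations cannot tell whether the samples were handled as pairs. With the replicate block, 31 members were higher and 1 was lower, as without it. Precision was lower for genes at low levels, with standard errors of 0.067 for CDC25C and 0.054 for CENPA, so that a difference of the size of the members' median (0.11) could be missed there.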
